A study of Mus musculus with 16 samples.

Results

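The genes described here carry cholesterol into the mitochondrion and make the first cut of steroid synthesis: STAR, CYP11A1, FDX1, FDXR and TSPO. They were chosen by 6 human RefSeq identifiers, of which 5 are on the array, each with 1 probe and 1 spot, among 29094 identifiers in all. The missing one is NM_024417, an identifier of FDXR, so FDXR was read through NM_004110 alone. STAR was read through NM_000349, CYP11A1 through NM_000781, FDX1 through NM_004109 and TSPO through NM_000714. All 5 passed the filter on dim probes, and 20243 identifiers in all passed it.

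In steroid-producing cells, free cholesterol has to cross from the outer to the inner mitochondrial membrane before it can be used. STAR, the steroidogenic acute regulatory protein, drives that transfer, and TSPO, the translocator protein of the outer membrane, binds cholesterol and has a debated part in it. On the inner membrane CYP11A1, the side-chain cleavage enzyme, converts cholesterol to pregnenolone, the precursor of all steroid hormones. CYP11A1 needs electrons from NADPH, which the flavoprotein ferredoxin reductase (FDXR) passes to the iron-sulphur protein ferredoxin (FDX1) and ferredoxin passes to the enzyme. FDX1 and FDXR serve the other mitochondrial cytochromes P450 as well.

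The tumours were grown from H295R, a human adrenocortical carcinoma line that secretes steroids, in male SCID mice, a strain whose T cells and B cells are not functional. For 28 days the mice were treated by mouth with mitotane, an adrenolytic drug, with 9-cis retinoic acid (9-cisRA), a ligand of the retinoid receptors RAR and RXR, with both agents (combined), or with corn oil (control). Total RNA was read on 1-colour Agilent arrays with human probes, 4 arrays per group in the labels on 4 slides, each slide holding 1 array of each group. Scanner data of 15 arrays were used, 4 each of mitotane, 9-cisRA and control and 3 of combined, and combined replicate 3 was read only from the authors' value table. The design text gives 43 mice and the labels do not tie arrays to animals, so the p-values describe only how these samples scatter, and that scatter may be technical in part. GEO lists the mouse as the organism although the line and the probes are human. No age, strain beyond SCID or number of tumours per mouse is given in the sources used here.

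Levels are given as the log2 of the spot's signal minus the log2 of the array's 75th percentile, so that 0 is the level of the array's 75th percentile and a difference of 1 is a 2-fold difference. The signal of a spot also depends on its probe, so the 5 genes' levels are not set against each other. STAR and CYP11A1, which mark steroid-producing cells, were well above background on 15 of 15 arrays, as were FDX1, FDXR and TSPO. No spot of the 5 was saturated or marked as an outlier, and the scanner software's own error was 10% to 11.8% of the signal. The raw signals on the arrays other than control replicate 4 lay between 21432 and 72530 for STAR, 6126 and 15829 for CYP11A1, 375.0 and 1455 for FDX1, 40504 and 82619 for FDXR, and 229.3 and 583.2 for TSPO. In tumour pieces fewer cells of a type and less RNA per cell cannot be told apart. The number of arrays limits the precision.

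Control replicate 4 stood apart from the other arrays. Its 75th percentile was an intensity of 224.2 against 551.5 to 1061 on the others, and its median Pearson r with the other arrays, over all transcripts tested, was 0.874 against 0.977 to 0.99. It held the lowest level of each of the 5 genes among the 15 arrays. Its difference from the mean of the other 3 controls was -1.06 for STAR, -0.89 for CYP11A1, -0.98 for FDX1, -0.58 for FDXR and -0.46 for TSPO, while its median difference over all transcripts tested was -0.32. Of all transcripts tested, 8.61% had a lower difference than STAR, 16.5% than CYP11A1, 12% than FDX1, 36.9% than FDXR and 43.3% than TSPO. The spots of STAR and FDXR were read in the scanner's low-gain pass on 14 arrays and in the high-gain pass on control replicate 4 alone. Results against control are therefore given with and without that array. Combined replicate 4, on the same slide, had fewer probes well above background than any other array, 58% against 61.7% on control replicate 4 and 69.5% to 75.9% on the rest.

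No comparison gave a call in limma: 0% of the 20243 transcripts had an adjusted p under 0.05 for mitotane, 9-cisRA or combined against control, for combined against either agent, or for the interaction, and none of the 5 genes did either. At an unadjusted p under 0.05 the shares were 6.03% for mitotane, 3.5% for 9-cisRA and 13.8% for combined against control, 4.75% and 9.45% for combined against mitotane and against 9-cisRA, and 3.71% for the interaction. Of the 5 genes 0, 1 and 2 lay under that p for mitotane, 9-cisRA and combined against control, namely TSPO under 9-cisRA and TSPO and FDXR under combined treatment. The estimate was above 0 for 5, 4 and 4 of the 5 genes against control, beside 61.5%, 53.9% and 58.7% of all transcripts tested, and without control replicate 4 for 4, 3 and 2 of them, beside 64.4%, 53.6% and 60.9%. Without that array 0, 1 and 1 of the 5, TSPO both times, lay under an unadjusted p of 0.05, beside 7.67%, 4.34% and 18.3% of all. Of the 5 genes 0, 1 and 2 lay above all controls on every treated array, beside 3.55%, 1.66% and 12.6% of all. The median log2 change of the 5 against control was 0.30 for mitotane, 0.22 for 9-cisRA and 0.24 for combined, beside 0.09, 0.03 and 0.09 over all transcripts tested. Without control replicate 4 the medians of the 5 were 0.08, 0.002 and -0.02, beside 0.08, 0.02 and 0.08 over all. The 3 comparisons share the control arrays.

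**Figure D1:**
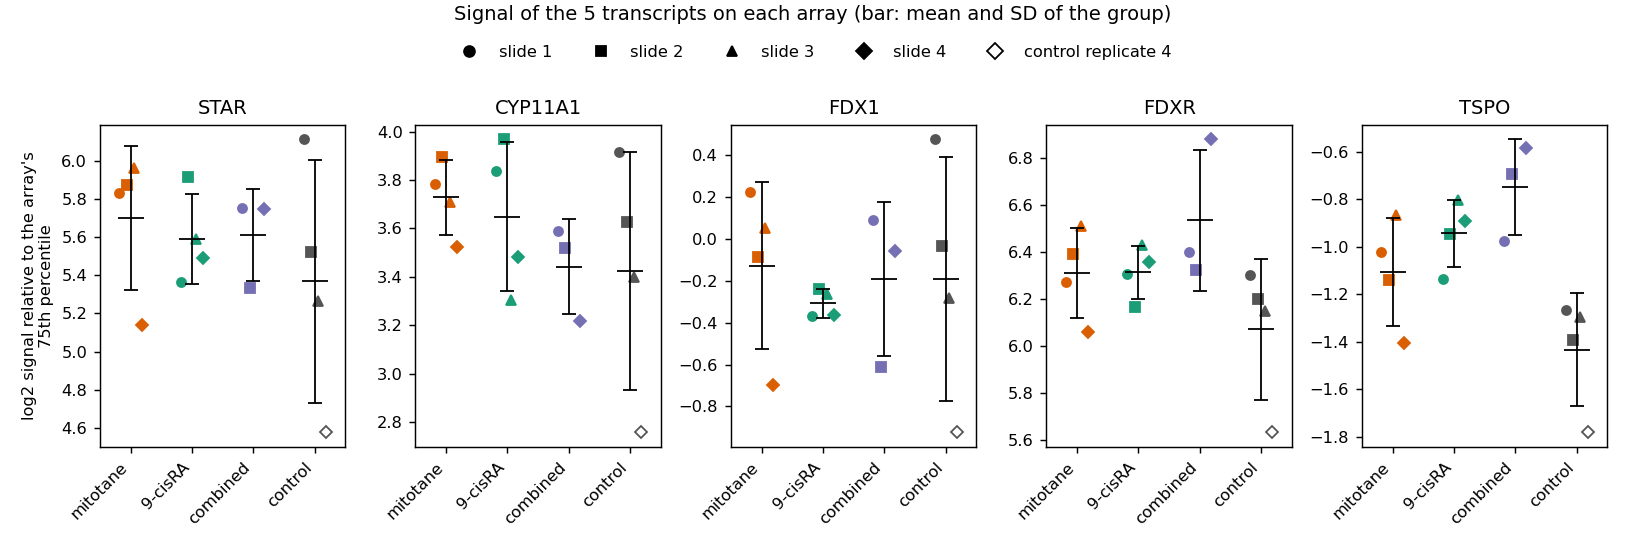
Log2 signal relative to the array's 75th percentile (vertical axes, 1 panel per gene, each with its own range) on each of 15 arrays by group, with the symbol giving the slide, the short bar the group mean and the whisker the SD (n = 4, or 3 for combined). Control replicate 4, the open diamond, is the lowest of 15 in every panel, and for TSPO all 9-cisRA and combined arrays lie above all control arrays.

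STAR, the protein that drives cholesterol transfer to the inner membrane, had levels of 5.83, 5.88, 5.96 and 5.14 on the mitotane arrays, 5.36, 5.91, 5.59 and 5.49 on the 9-cisRA arrays, and 5.75, 5.33 and 5.75 on the combined arrays, against 6.11, 5.52, 5.27 and 4.58 on the control arrays. The controls spanned the highest and the lowest of the 15 values, so each treated group lay inside their range. The lowest was control replicate 4. Mitotane replicate 4, at 5.14, lay below the other 3 controls, whose lowest level was 5.27. Mitotane had the highest mean, 5.70 ± 0.38 (SD, n = 4), then combined with 5.61 ± 0.24 (n = 3), 9-cisRA with 5.59 ± 0.23 (n = 4) and control with 5.37 ± 0.64 (n = 4). No 2 neighbours in that order differed by more than the SD of the controls, which was 0.43 without control replicate 4. That SD is the spread of single arrays, so it cannot show whether the means are alike.

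The log2 change of STAR was 0.33 ± 0.28 (SE) for mitotane, 0.22 ± 0.28 for 9-cisRA and 0.24 ± 0.30 for combined against control, with adjusted p = 0.721, 0.76 and 0.718 in limma. The 95% interval for mitotane ran from 0.832-fold to 1.91-fold. Without control replicate 4 the changes were 0.07 ± 0.23, -0.04 ± 0.23 and -0.02 ± 0.25, and the signs for 9-cisRA and combined turned. Without control replicate 1, the highest STAR array, they were 0.58, 0.47 and 0.49, of which mitotane had an unadjusted p = 0.0398. The direction of STAR under 9-cisRA and combined treatment thus depended on control replicate 4. Within slides, mitotane minus control was -0.28, 0.36, 0.70 and 0.56 on slides 1 to 4 and 9-cisRA minus control was -0.75, 0.39, 0.32 and 0.92. Combined minus control was -0.36, -0.19 and 1.17 on slides 1, 2 and 4, so only the slide of control replicate 4 was higher.

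CYP11A1, the side-chain cleavage enzyme itself, had levels of 3.79, 3.89, 3.71 and 3.53 on the mitotane arrays, 3.84, 3.97, 3.31 and 3.48 on the 9-cisRA arrays, and 3.59, 3.52 and 3.22 on the combined arrays, against 3.92, 3.63, 3.40 and 2.76 on the control arrays. Every treated array lay within the control range except 9-cisRA replicate 2, at 3.97. The low end of that range was control replicate 4. 9-cisRA replicate 3, at 3.31, and combined replicate 4, at 3.22, lay below the other 3 controls, whose lowest level was 3.40. Mitotane had the highest mean, 3.73 ± 0.16 (SD, n = 4), then 9-cisRA with 3.65 ± 0.31 (n = 4), combined with 3.44 ± 0.20 (n = 3) and control with 3.42 ± 0.49 (n = 4).

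Against control the log2 change of CYP11A1 was 0.30 ± 0.23 (SE) for mitotane, 0.22 ± 0.23 for 9-cisRA and 0.02 ± 0.24 for combined (adjusted p = 0.713, 0.745 and 0.977, limma), and 0.08, 0.002 and -0.21 without control replicate 4. Combined treatment was set against each agent alone, a comparison that does not use the controls' levels. CYP11A1 was lower under combined treatment by a log2 change of -0.29 ± 0.24 against mitotane (95% interval from -0.81 to 0.24, adjusted p = 1, limma) and by one of -0.21 ± 0.24 against 9-cisRA (-0.73 to 0.32, adjusted p = 0.934). Control replicate 4 enters these only through the shared spread. Without it the adjusted p was 0.57 and 0.547 and the unadjusted p 0.126 and 0.259 (limma). With the slide as a block as well, the change against mitotane was -0.35 (adjusted p = 0.367, unadjusted p = 0.0196, limma). That was the 1 setting of 27 with an unadjusted p under 0.05 against mitotane. On slides 1, 2 and 4 the difference was -0.20, -0.37 and -0.31 against mitotane and -0.25, -0.45 and -0.26 against 9-cisRA, so the combined array was the lower on each slide. The share of all transcripts that were lower on each slide was not counted. The groups overlapped in both comparisons for all 5 genes, while 11% and 16.3% of all transcripts had groups that did not overlap. Combined replicate 4 held the lowest combined level, and without it the changes were -0.17 and -0.10. Without 9-cisRA replicate 3 the change against 9-cisRA was -0.32. The interaction, which asks whether the combined effect departs from the sum of the single effects, was -0.51 ± 0.33 for CYP11A1 (adjusted p = 0.966, limma) and -0.29 ± 0.25 without control replicate 4.

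FDX1, the ferredoxin that hands electrons to CYP11A1, had levels of 0.22, -0.09, 0.05 and -0.70 on the mitotane arrays, -0.37, -0.24, -0.26 and -0.36 on the 9-cisRA arrays, and 0.09, -0.61 and -0.06 on the combined arrays, against 0.47, -0.04, -0.28 and -0.92 on the control arrays. The control arrays again held both ends of the range, and all treated arrays lay between them. The low end was control replicate 4. Mitotane replicate 4, 9-cisRA replicates 1 and 4 and combined replicate 2 lay below the other 3 controls, whose lowest level was -0.28. The SD was 0.07 among the 4 arrays of 9-cisRA, against 0.40 under mitotane, 0.37 under combined treatment and 0.58 in control, and the difference in spread was not tested.

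The log2 change of FDX1 against control was 0.06 ± 0.27 (SE) for mitotane, -0.12 ± 0.27 for 9-cisRA and -0.002 ± 0.29 for combined, with adjusted p = 0.935, 0.861 and 0.998 in limma. The interval for mitotane ran from 0.700-fold to 1.56-fold. Without control replicate 4 the 3 changes were -0.18, -0.36 and -0.25, all below 0, and without control replicate 1 they were 0.29, 0.11 and 0.22. Within slides 9-cisRA minus control was -0.84, -0.20, 0.02 and 0.56 on slides 1 to 4. The lowest difference was on the slide of the highest control and the highest on the slide of control replicate 4.

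FDXR, the reductase at the head of the electron chain, had levels of 6.27, 6.39, 6.51 and 6.06 on the mitotane arrays, 6.30, 6.16, 6.43 and 6.35 on the 9-cisRA arrays, and 6.40, 6.32 and 6.88 on the combined arrays, against 6.30, 6.20, 6.15 and 5.63 on the control arrays. All 3 combined arrays lay above all 4 controls, the lowest of them, combined replicate 2, at 6.32 beside control replicate 1 at 6.30. Such a separation upward was seen for 12.6% of all transcripts tested in that comparison. The mitotane and 9-cisRA arrays overlapped the controls.

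FDXR was 1.38-fold higher under combined treatment, with means of 6.53 ± 0.30 (SD, n = 3) under combined treatment and 6.07 ± 0.30 (n = 4) in control and a log2 change of 0.46 ± 0.19 (SE). It did not pass the test (adjusted p = 0.314, unadjusted p = 0.0281, limma), and 11.6% of all transcripts tested were higher at an unadjusted p under 0.05. The change was 0.32 (unadjusted p = 0.0597) without control replicate 4, 0.29 without combined replicate 4 and 0.15 (unadjusted p = 0.312) without both. Within slides combined minus control was 0.10, 0.13 and 1.25 on slides 1, 2 and 4. Most of the mean thus came from the slide that holds both arrays. The changes for the single agents were 0.24 ± 0.18 for mitotane and 0.24 ± 0.18 for 9-cisRA (adjusted p = 0.713 and 0.745, limma), and 0.09 and 0.10 without control replicate 4.

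TSPO, the cholesterol-binding protein of the outer membrane, had levels of -1.02, -1.14, -0.87 and -1.41 on the mitotane arrays, -1.14, -0.95, -0.80 and -0.89 on the 9-cisRA arrays, and -0.98, -0.69 and -0.58 on the combined arrays, against -1.27, -1.39, -1.30 and -1.78 on the control arrays. All 9-cisRA arrays and all combined arrays lay above all controls, and of the mitotane arrays replicate 4 alone, at -1.41, lay within the control range. Combined treatment had the highest mean, -0.75 ± 0.20 (SD, n = 3), then 9-cisRA with -0.94 ± 0.14 (n = 4), mitotane with -1.11 ± 0.23 (n = 4) and control with -1.43 ± 0.24 (n = 4). Neighbours in that order overlapped.

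**Figure D2:**
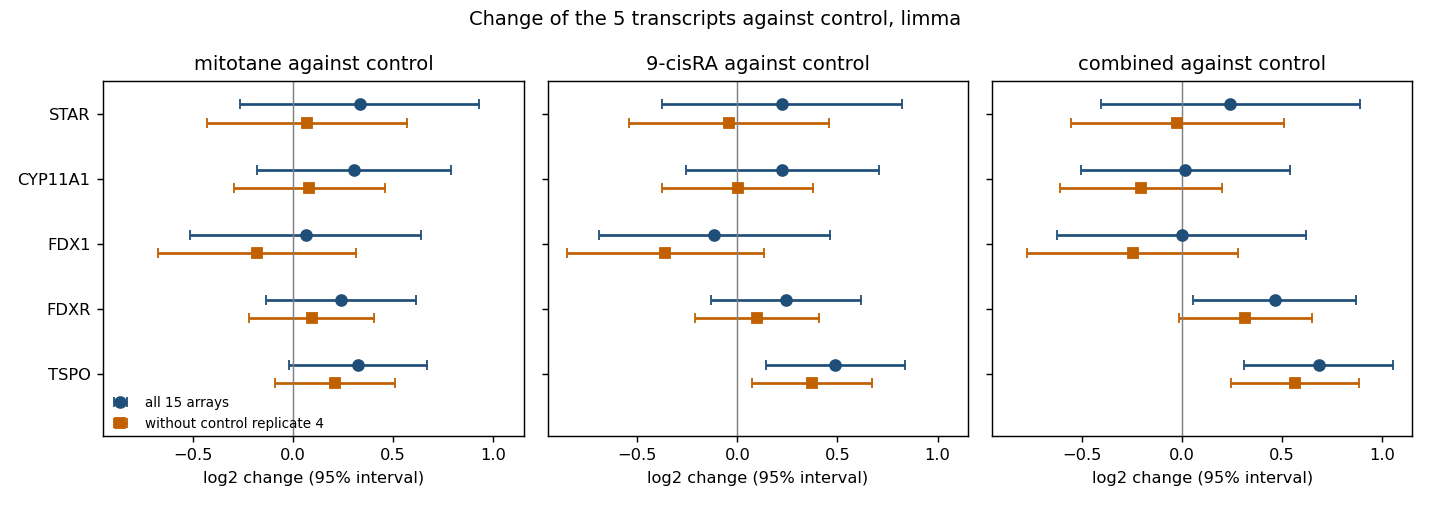
Log2 change against control with its 95% interval from limma (horizontal axis) for each gene (vertical axis), for mitotane, 9-cisRA and combined treatment in 1 panel each, with all 15 arrays (circles) and without control replicate 4 (squares). For TSPO under 9-cisRA and combined treatment the interval lies above 0 both ways, and for STAR, CYP11A1 and FDX1 every interval includes 0.

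Against control TSPO was 1.61-fold higher under combined treatment, with a log2 change of 0.68 ± 0.17 (SE) and a 95% interval from 1.24-fold to 2.08-fold. It was 1.40-fold higher under 9-cisRA, at 0.49 ± 0.16 with a log2 interval from 0.14 to 0.84, and 1.25-fold higher under mitotane, at 0.33 ± 0.16 and from 0.986-fold to 1.59-fold. None passed the test over all transcripts, with adjusted p = 0.214 for combined, 0.745 for 9-cisRA and 0.713 for mitotane in limma and unadjusted p = 0.00154, 0.00895 and 0.0636. By unadjusted p in limma TSPO stood at rank 133 of 20243 for combined and at rank 76 for 9-cisRA. Without control replicate 4 the ranks were 256 and 304. Of all transcripts 13.8% and 3.5% lay under an unadjusted p of 0.05 for combined and 9-cisRA, and 18.3% and 4.34% without that array. Separation upward from the controls was seen for 12.6% of transcripts for combined and 1.66% for 9-cisRA.

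Without control replicate 4 the changes of TSPO were 0.57 ± 0.15, 0.37 ± 0.14 and 0.21 ± 0.14 for combined, 9-cisRA and mitotane, with unadjusted p = 0.00203, 0.0182 and 0.155 and adjusted p = 0.16, 0.98 and 0.637. The other 3 controls lay close together, at -1.32 ± 0.07 (SD, n = 3), and the 9-cisRA and combined arrays still lay above all of them. Such separation upward from 3 controls was seen for 20.2% of transcripts for combined, 3.75% for 9-cisRA and 7.1% for mitotane. With combined replicate 4 left out too, the combined change was 0.48 ± 0.16 (unadjusted p = 0.0106).

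Within slides TSPO was higher than the control array in every treated array. The share of all transcripts for which this held was not counted, and the differences of a slide share its control array. Mitotane minus control was 0.25, 0.25, 0.43 and 0.38 on slides 1 to 4, 9-cisRA minus control was 0.13, 0.44, 0.49 and 0.89, and combined minus control was 0.29, 0.70 and 1.20 on slides 1, 2 and 4. With the slide as a block the log2 changes were 0.33, 0.49 and 0.74 for mitotane, 9-cisRA and combined, with unadjusted p = 0.0738, 0.0125 and 0.0018 and adjusted p = 0.734, 0.746 and 0.338 in limma. The 9-cisRA array lay at position 4 of each slide, so the place on the slide and the agent cannot be told apart. The control array lay at position 3 on slides 1 to 3 and at position 2 on slide 4. The combined arrays lay at positions 2, 1 and 1 on slides 1, 2 and 4. Without control replicate 4, place and treatment thus cannot be told apart for combined against control either. Both limits hold for all the genes described here.

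**Figure D3:**
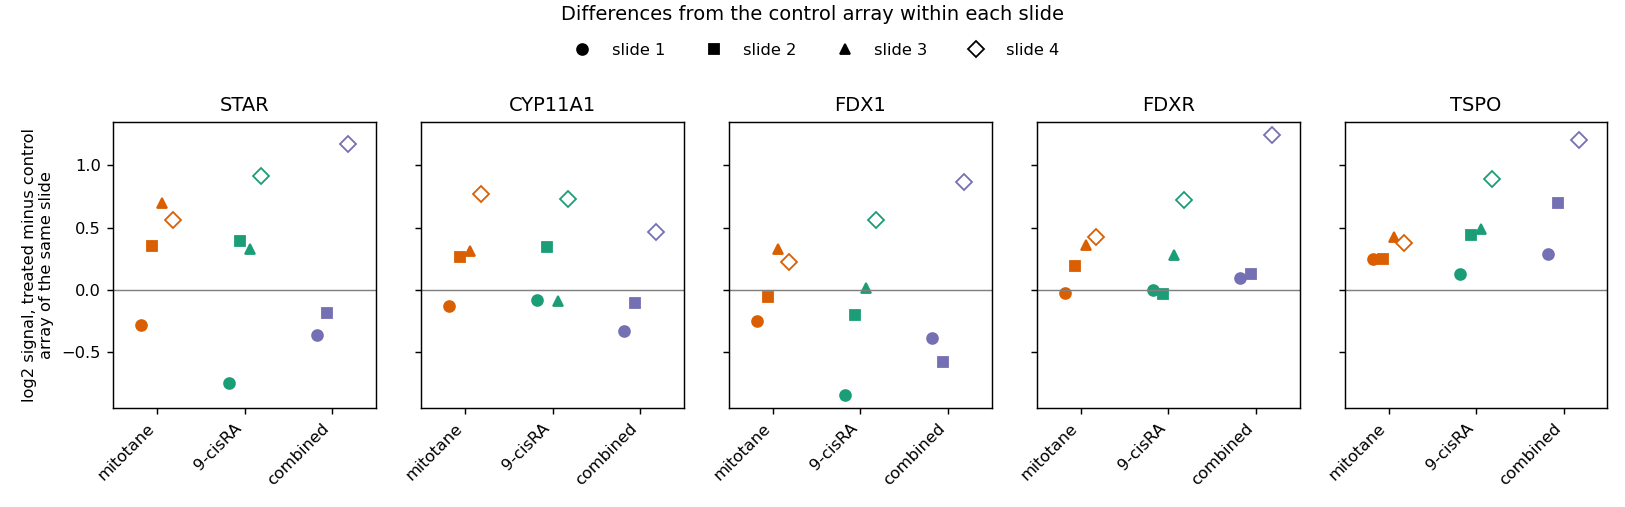
Difference in log2 signal between a treated array and the control array of the same slide (vertical axis) for mitotane, 9-cisRA and combined treatment, 1 panel per gene, with the symbol giving the slide (4 slides, 3 for combined). Open diamonds are the slide that holds control replicate 4. TSPO is above 0 on all slides, while STAR, CYP11A1 and FDX1 fall on both sides of 0 in each comparison.

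Combined treatment was also set against each agent for TSPO and FDXR. TSPO was higher than under mitotane by a log2 change of 0.36 ± 0.17 (SE; 95% interval from -0.02 to 0.73, adjusted p = 1, unadjusted p = 0.0594, limma; 0.354 and 0.0225 without control replicate 4, which enters only the shared spread and where 11.5% of transcripts lay under an unadjusted p of 0.05) and than under 9-cisRA by 0.19 ± 0.17 (-0.18 to 0.57, adjusted p = 0.869). The difference from 9-cisRA was 0.11 without combined replicate 4 and 0.31 without combined replicate 1. The combined array was the higher on each of slides 1, 2 and 4, by 0.05, 0.45 and 0.82 against mitotane and by 0.16, 0.25 and 0.31 against 9-cisRA. The share of all transcripts that were higher on each slide was not counted. For FDXR the changes were 0.22 ± 0.19 against each agent (adjusted p = 1 and 0.849), and 0.05 against each without combined replicate 4. The interaction terms were -0.13 ± 0.24 for TSPO, -0.02 ± 0.26 for FDXR, -0.31 ± 0.41 for STAR and 0.05 ± 0.40 for FDX1, with adjusted p from 0.966 to 0.997 in limma. Without control replicate 4 they were -0.0157, 0.13, -0.0491 and 0.29 in the same order of genes, and without control replicate 1 the term for STAR was -0.56. For STAR and FDX1 the changes were -0.09 ± 0.30 and -0.07 ± 0.29 against mitotane and 0.02 ± 0.30 and 0.11 ± 0.29 against 9-cisRA, with adjusted p of at least 0.999 in limma.

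Combined replicate 3 was read from the authors' value table, whose log2 values are centred on each probe's median, while their exact scaling is not known. There TSPO stood at 0.01, 0.29, 0.14 and 0.41 on combined replicates 1 to 4, against -0.24, -0.38, -0.28 and -0.86 on control replicates 1 to 4. All 4 combined arrays lay above all controls, as they did for 8.95% of all transcripts tested in that table. FDXR stood at 0.05, -0.02, 0.13 and 0.54 on the combined arrays, against -0.003, -0.12, -0.16 and -0.77 on the control arrays, so the separation of FDXR did not hold there, since combined replicate 2 lay below control replicate 1. On combined replicate 3 STAR, CYP11A1 and FDX1 stood at 0.01, -0.10 and -0.10, inside the range of the other combined arrays. In the value table without control replicate 4 the change of TSPO was 0.51 for combined against control (adjusted p = 0.104, unadjusted p = 0.00182, limma).

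Over the 14 arrays other than control replicate 4, STAR and FDX1 varied together, with Pearson r = 0.836 and Spearman rho = 0.811, or r = 0.7 without the 2 arrays whose STAR level lay farthest from the median. For FDXR and TSPO r was 0.747 and rho 0.749, or r = 0.547 without the 2 arrays whose FDXR level lay farthest from its median. The 2 arrays left out were chosen by the gene named first, so the 12 arrays left differ between pairs. STAR and its enzyme partner CYP11A1 had r = 0.504, or 0.416 without the 2 arrays farthest in STAR. CYP11A1 had r = -0.4 with FDXR and r = -0.376 with TSPO. Without the 2 arrays whose CYP11A1 level lay farthest from its median, 9-cisRA replicate 2 and combined replicate 4, these were 0.152 and -0.262. With each group's mean taken off, r was 0.9 for STAR and FDX1 and 0.676 for FDXR and TSPO. With control replicate 4 included, every pair had r above 0, from 0.229 to 0.883. The arrays share their slides and their scaling, 10 pairs were read, and these values are descriptions.

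**Figure D4:**
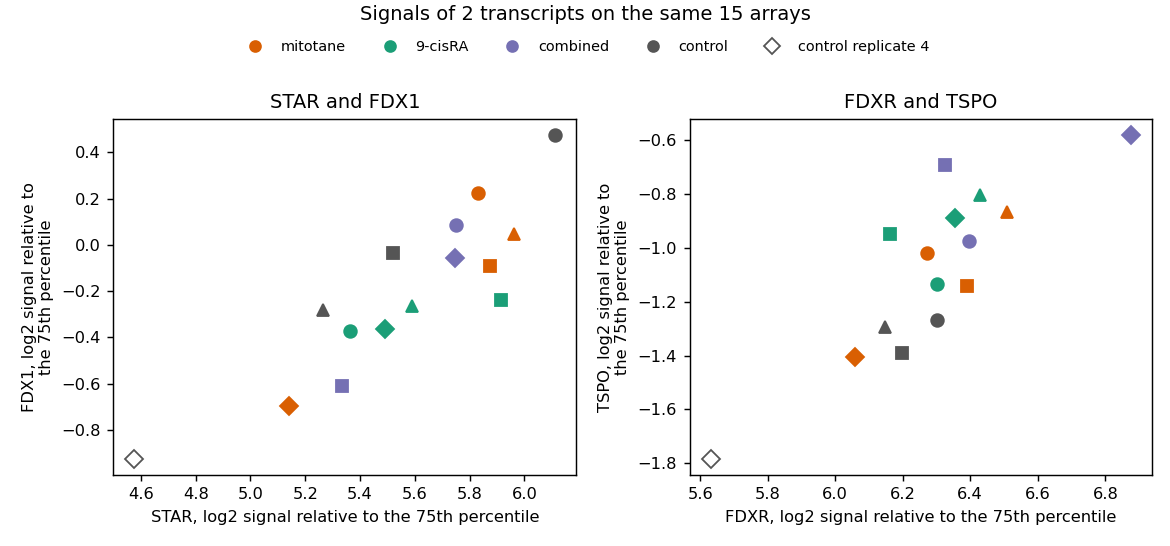
Log2 signal relative to the array's 75th percentile of STAR (horizontal) and FDX1 (vertical), and of FDXR (horizontal) and TSPO (vertical), on the same 15 arrays, coloured by group, with the symbol shape giving the slide. In each of the 4 groups the array lowest for STAR is also lowest for FDX1, although on the 9-cisRA arrays FDX1 keeps between -0.37 and -0.24 as STAR spans 5.36 to 5.91, and control replicate 4, the open diamond, is lowest on every axis.

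For each gene the 2 transcripts with the pattern most like it were sought over the same 14 arrays among all transcripts tested. The files do not pair these identifiers with gene names. STAR was most like NM_006426 (r = 0.902) and NM_020863 (r = 0.889), and CYP11A1 most like NM_022065 (r = 0.922) and NM_005600 (r = 0.912). FDX1 was most like NM_004090 (r = 0.875) and NM_000208 (r = 0.863). FDXR was most like NM_001135732 (r = 0.959) and NM_003639 (r = 0.95), and TSPO most like NM_022827 (r = 0.908) and NR_029409 (r = 0.869). None of the 5 genes was among another's 2 nearest. These r were picked as the highest among 20243 transcripts over 14 arrays, so the search itself raises them. They are descriptions without a test.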

How the data were processed

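Gene expression was measured in H295R tumours on 1-colour Agilent arrays. The intensity values are the Agilent Feature Extraction output deposited by the authors (version 11.0.1 per the submitters' processing notes, 11.0.1.1 per the file headers), background-subtracted and detrended within the array, with no scaling between arrays. The log2 values of the series value table were deposited by the authors, and no source used here states how they were made. There, differences between arrays correlated with those of the scanner files at r = 1 after rounding. The column medians were -0.424 for control replicate 4 and -0.0267 to 0.0554 on the other 15 arrays. Those values are centred on each probe's median and run the same way as the scanner signals, while their exact scaling stays unknown.

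Processed signals were put on the log2 scale after division by the 75th percentile of the 43118 spots of an array that are no controls. Outlier spots were left out, saturated ones kept, spots of a probe averaged, and the probe with the highest mean stood for an identifier. Testing required a signal well above background on all arrays of 1 group or more. All 4 groups entered 1 fit with lmFit and eBayes of limma 3.58.1 in R 4.3.3, with two-sided p-values adjusted by Benjamini-Hochberg over all 20243 identifiers and held to 0.05. Files were read with data.table (version 1.17.8) and plots drawn with matplotlib 3.10.9. The fit was tested on simulated data.

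The genes, lists and comparisons were chosen with earlier results of these data known. Gene symbols are those given with the identifiers when the genes were chosen. The reference tables at hand were of the mouse, and 0 of 29094 identifiers matched, so the lists drawn up for other genes of the pathway and for markers of other cells were not read, and no sequence is shown. The rule for named genes took all identifiers of the set on the array, and for each the 2 tested transcripts with the highest Pearson r over 14 arrays. Alternatives were the slide as a block, each array left out, other background corrections and scalings, array weights, the value table, fewer groups in the fit, no filter, and the mean of all probes. The scanner files have no mean signal, so the normexp correction (offset 50) used the median signal. Slides and replicate numbers coincide. Deviations from the group means over all transcripts correlated between arrays of 1 slide at r from -0.268 to 0.37 (median 0.01), against -0.419 to 0.483 (median -0.02) between arrays of different slides.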

Additional observations from a re-analysis of the deposited data

Results flagged for a closer look

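Among 15 sets of 4 arrays, 5 genes in each of the mitotane, 9-cisRA and control groups, 1 array lay farther from its group than the limit for such sets, of which chance marks about 1 in 20. It was the STAR level of mitotane replicate 4, at 5.14 against 5.83 to 5.96 on the other mitotane arrays, with a gap of 0.84 of the group's range. That array also held the lowest mitotane level of CYP11A1, FDX1, FDXR and TSPO, with gaps under the limit. Combined treatment had only 3 arrays and was left out. The cause was not tested.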

How the results depend on the processing

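Each change was recomputed under 27 other settings (26 for the interaction, which cannot be had from fewer groups), all planned. TSPO kept its direction and an unadjusted p under 0.05 in 27 of 27 for 9-cisRA (0.37 to 0.55) and for combined (0.48 to 0.80) against control, and FDXR under combined treatment kept its direction (0.15 to 0.57) with such a p in 19 of 27. Many of these settings could not move the estimate. It stayed the same when an array of a group not compared was left out, with fewer groups, without the filter and with the mean of all probes. For 9-cisRA it also stayed the same with the slide as a block. In such settings only the p could change, so these counts overstate how far the direction was put to the test. With array weights, TSPO under combined treatment passed the test (0.51, adjusted p = 0.00269, limma). The weights ran from 0.0351 for control replicate 4 to 8.8 for control replicate 2. Outside that setting 0 of 775 values passed, with a lowest adjusted p of 0.104. Array weights also called 3, 4 and 5786 transcripts for mitotane, 9-cisRA and combined against control, 103 for combined against mitotane and 1998 for combined against 9-cisRA. Over all settings and genes 58 values turned sign.

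With the slide as a replicate block, CYP11A1 and FDX1 under combined treatment against control turned to -0.0258 and 0.0132, and the FDXR interaction to 0.0256. The block changed no call. With the block and without control replicate 4, FDX1 under mitotane was -0.13, CYP11A1 under combined treatment -0.21, and the FDXR and TSPO interactions 0.17 and 0.0172. Without control replicate 4 and combined replicate 4, FDX1 under mitotane was -0.18, STAR -0.0424 under 9-cisRA, -0.0905 under combined treatment and -0.0482 for combined against 9-cisRA, and CYP11A1 under combined treatment -0.0935. STAR for combined against 9-cisRA was -0.0184 with normexp, -0.0114 with quantile scaling, -0.0127 when centred on the median and -0.0093 in the value table with or without control replicate 4. CYP11A1 under combined treatment was -0.0024 with quantile scaling, and the FDX1 interaction -0.0155 in the value table. In the value table without control replicate 4, FDX1 under mitotane was -0.20, STAR -0.04 under 9-cisRA and -0.0492 under combined treatment, CYP11A1 under combined treatment -0.23, the FDXR interaction 0.10, and 1 transcript was called for combined against mitotane. With array weights, FDX1 under mitotane was -0.11, STAR and CYP11A1 under 9-cisRA -0.0125 and -0.0406, and CYP11A1 under combined treatment -0.0904.

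With 1 array left out at a time, FDX1 ran from -0.18 to 0.29 under mitotane, -0.36 to 0.11 under 9-cisRA and -0.25 to 0.22 under combined treatment against control. STAR ran from -0.0424 to 0.47 under 9-cisRA and -0.0222 to 0.49 under combined treatment, and CYP11A1 from -0.21 to 0.18 under combined treatment. Combined against mitotane ran from -0.28 to 0.0469 for STAR and -0.25 to 0.14 for FDX1, with 0 to 1 transcripts called. Combined against 9-cisRA ran from -0.055 to 0.16 for STAR and -0.0257 to 0.32 for FDX1, and from 0.11 to 0.31 for TSPO, which was 0.0685 with array weights. The interaction ran from -0.17 to 0.29 for FDX1, -0.19 to 0.13 for FDXR, -0.56 to -0.0491 for STAR and -0.23 to -0.0157 for TSPO. The causes were not tested.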
